A study of Homo sapiens with 9 samples.

Results

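The genes described here are 50 interferon-stimulated effectors, taken as a fixed list of gene symbols. No threshold on a measured value chose them, but the list was drawn up with earlier results of these data known. All 50 were found among the 18430 genes of the deposited table. Of them 48 were among the 13989 genes that passed the filter on low counts and could be tested. The remaining 2, IFI27 and EPSTI1, fell below it in every comparison.

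Type I and type III interferons bind receptors at the cell surface, and the receptor-bound kinases JAK1 and TYK2 then activate transcription factors of the STAT family. STAT2 joins IRF9 in the complex ISGF3, which binds a promoter element called the interferon-stimulated response element (ISRE). The genes it switches on encode proteins that block viral entry, sense or degrade viral RNA, stop its translation or tag proteins with the ubiquitin-like modifier ISG15. Tumour cells, melanoma cells among them, can express the same programme without a virus.

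The cells were A375, an established human melanoma line that carries the BRAFV600E mutation, so every group shared that genotype. Sequencing covered 3 groups with 3 RNA-seq libraries each. Control cells stayed in normal culture. The second group received vemurafenib, an inhibitor of mutant BRAF, at 10 µM for 3 days, and the third received cisplatin, a platinum compound that crosslinks DNA, at 2 µM for 1 day. Both treated groups then went back to normal culture, and RNA of all groups was taken at day 7. The drugs therefore differed in dose, in length of exposure and in the time from exposure to collection, as well as in kind. These differences cannot be told apart. No label says that the 3 libraries of a group came from separate cultures, so the p-values measure the spread between these libraries, which may be technical. All cells are of 1 line, and in such bulk RNA fewer cells of a kind and less RNA per cell cannot be told apart.

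Library totals ranged from 14481020 to 16038475 estimated counts. Levels are given as CPM, counts scaled to library size and by TMM factors, and where genes are compared with each other as TPM, the deposited unit that also allows for transcript length. Of 8 listed melanocyte lineage markers 5 were tested, and 3 rose after vemurafenib, while 3 rose and 1 fell after cisplatin. The transcription factor gene SOX10 stood between 779 and 1190 CPM in all 9 libraries, with a log2 change of -0.34 (adjusted p = 0.0226) after cisplatin, and the pigment genes MLANA and TYR reached at most 0.400 and 0.277 CPM. S100B rose by 4.15 after vemurafenib and 3.17 after cisplatin on the log2 scale and PMEL by 1.33 after cisplatin, and MITF rose 2.29-fold after vemurafenib. The pigment enzyme gene DCT, at most 0.193 CPM in controls, stood between 165 and 367 CPM after vemurafenib and between 0.400 and 1.04 after cisplatin. The summed lineage markers were 1033 to 1185 CPM in controls, 1507 to 1873 after vemurafenib and 989.9 to 1038 after cisplatin, and their part in the members' changes was not tested. Of the leukocyte markers listed, CD3E was at 0 in every control library and at most 0.139 CPM elsewhere, and PTPRC was at most 0.400 CPM. The summed leukocyte markers were 7.17 to 10.01 CPM in controls, 4.36 to 9.24 after vemurafenib and 32.5 to 52.5 after cisplatin, nearly all of it the lysozyme gene LYZ, and the part of this in the results after cisplatin was not tested.

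Vemurafenib replicate 1 stood apart from the other vemurafenib libraries. On the third principal component of all tested genes (5.84% of the variance) it scored 39.1, against -22.3 and -22.7 for replicates 2 and 3. Its difference from them followed gene length, with a Spearman coefficient of -0.617 across 13535 genes and of -0.688 across 47 members. These are descriptions across genes that share the same libraries. For this difference levels were scaled to library totals only, without TMM factors. The 24 longer members had a median difference of -0.61 on the log2 scale, and 23 of them were lower in replicate 1, while the 23 shorter ones had a median of -0.02. The TMM factors were 0.9945 for replicate 1 and 1.054 and 1.052 for replicates 2 and 3, which raises each difference slightly. With them some longer members were not lower, MX2 among them, at 104 CPM in replicate 1 and 98.7 and 103 in the others. The counts over all members that follow are therefore also given without this library.

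**Figure D1:**
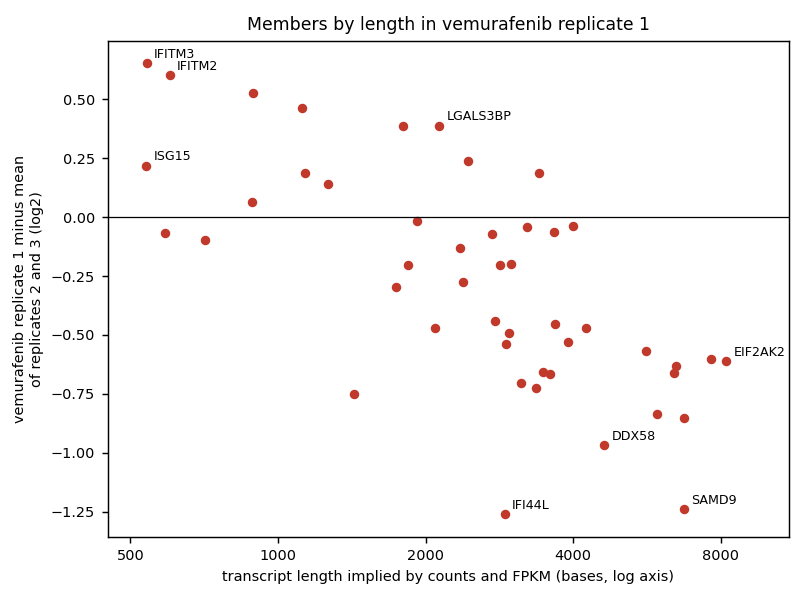
Each point is 1 member, with the transcript length implied by its counts and FPKM on a log axis and, on the vertical axis, its log2 level in vemurafenib replicate 1 minus the mean of replicates 2 and 3. Levels here are scaled to library totals without TMM factors. IFITM3 and IFITM2, both short, lie above 0, but 12 of the 23 shorter members lie below it. Of the 24 longer members 23 lie below it.

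Most effector genes were higher in treated than in control cells at day 7. After vemurafenib 35 of the 48 tested members rose and 3 fell, where 22.0% of all tested genes rose and 22.9% fell (edgeR quasi-likelihood test, adjusted p under 0.05). The median log2 fold change of the members was 0.84, beside 0.01 for all tested genes. In 33 members every vemurafenib library lay above every control library, and in 3 every one lay below, beside 25.8% and 27.0% of all tested genes. Without vemurafenib replicate 1, 40 members rose and 3 fell, where 26.2% and 27.9% of all genes then tested did, and the median was 0.79.

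After cisplatin 31 members rose and 1 fell, where 22.7% of all tested genes rose and 23.5% fell. Their median log2 fold change was 0.87, beside 0.00 for all tested genes. Groups did not overlap upwards in 35 members and downwards in 1, beside 33.1% and 33.8% of all tested genes. Without vemurafenib replicate 1, which enters the shared fit, 34 members rose and 1 fell, where 29.8% and 31.2% of all genes then tested did. Both comparisons use the same 3 control libraries, so that an unusual control value moves both in the same direction. Their values are therefore set side by side, and differences between the drugs are taken from the direct contrast of the treated libraries.

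In that direct contrast 11 members were higher and 12 lower after vemurafenib than after cisplatin, where 23.0% of all tested genes were higher and 20.8% lower. Libraries of the drugs did not overlap upwards in 12 members and downwards in 14, beside 27.9% and 26.1% of all tested genes. The median of -0.11 hides changes of both signs that reached 1.71 and -1.60. Without vemurafenib replicate 1 the counts were 18 and 15, where 26.5% of all genes then tested were higher and 24% lower, and the median was 0.00059. The number of lower members fell to 6 without cisplatin replicate 1 and to 7 without cisplatin replicate 2, where 17.4% and 16.5% of all genes then tested were lower.

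**Figure D2:**
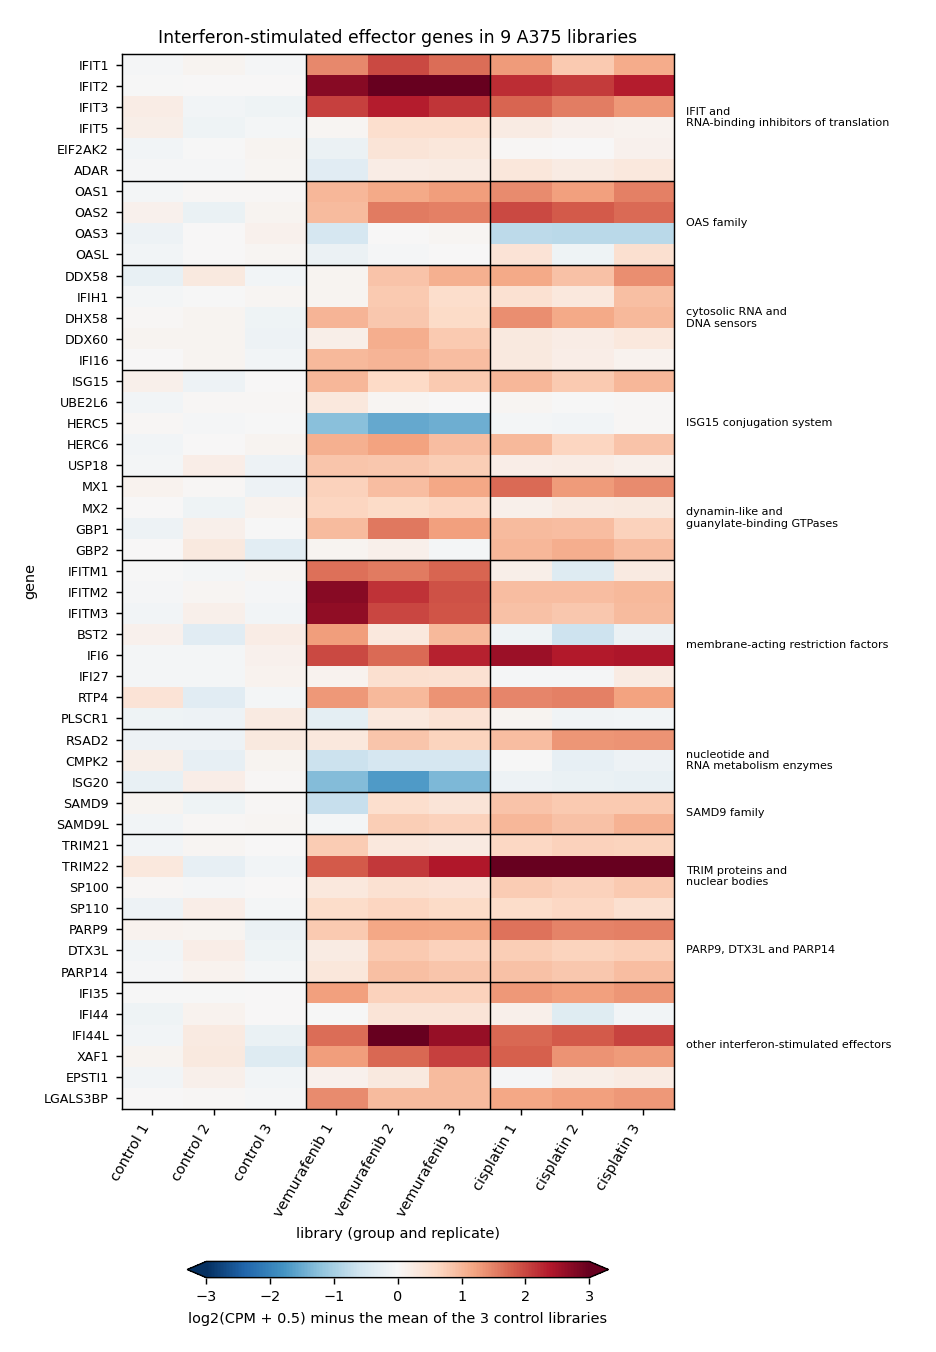
Rows are the 50 members by role and columns the 9 libraries; colour is log2(CPM + 0.5) minus the mean of the 3 control libraries. Red fills most rows of the treated libraries. HERC5 and ISG20 are clearly blue only after vemurafenib. OAS3 is a paler blue after cisplatin and also in vemurafenib replicate 1. The IFITM rows are darker after vemurafenib while TRIM22 is darker after cisplatin.

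**Figure D3:**
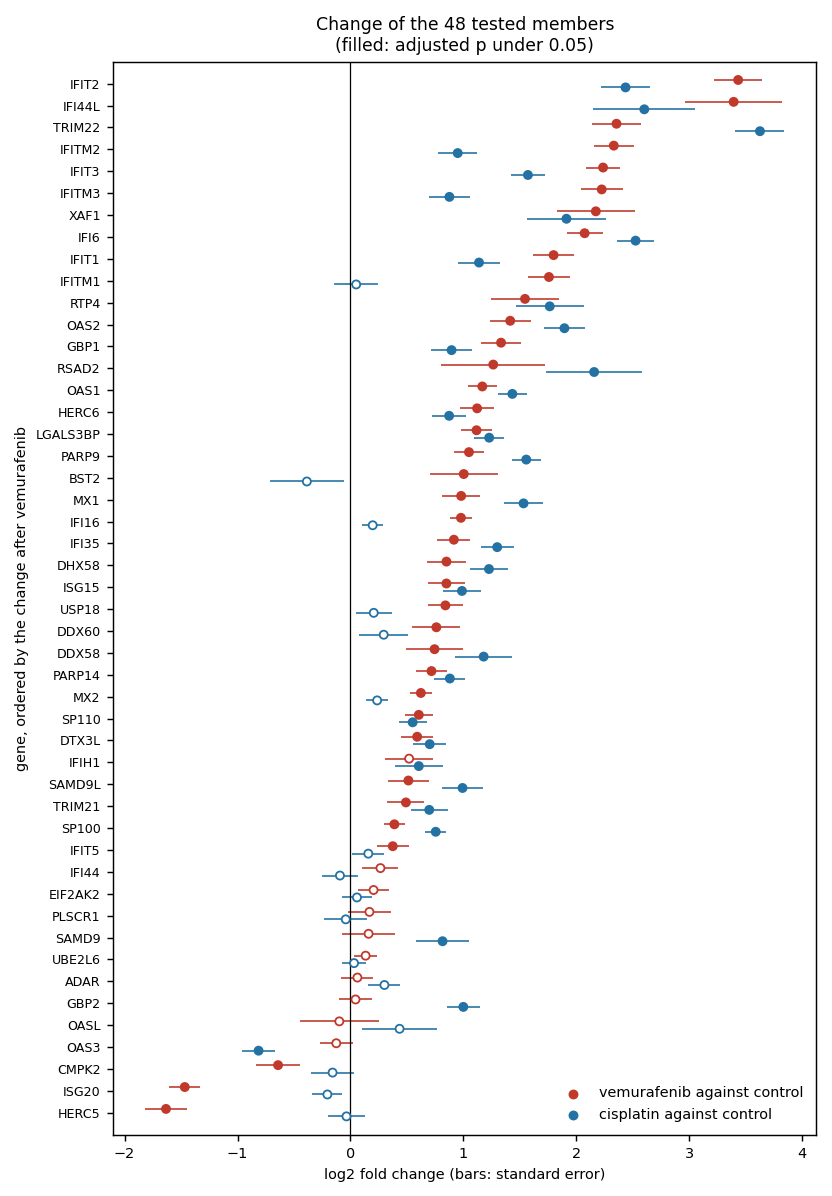
Points are log2 fold changes of the 48 tested members against control after vemurafenib (red) and cisplatin (blue), with bars of 1 standard error, filled where the adjusted p is under 0.05. The largest are IFIT2 at 3.43 after vemurafenib and TRIM22 at 3.62 after cisplatin, and the lowest is HERC5 at -1.63.

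The promoters of these genes were read from the RefSeq table for GRCh38.p14, as 250 bases before to 50 after the annotated start. A match was found for 41 members. No entry was found for IFIT2, OAS2, OASL, DHX58, USP18, MX2, GBP2, IFITM2 and TRIM22. The ISRE core was searched on both strands as GAAA, any 2 bases and GAAA, which reads TTTC, any 2 bases and TTTC on the opposite strand, and overlapping matches were each counted. It occurred in 27 of the 41 promoters (65.9%, exact 95% interval 49.4 to 79.9) and in 3.65% of all 27305 promoters in the table. A gamma-activated site, TTCNNNGAA, occurred in 9 of the 41 (22.0%) and in 7.88% of all. The 27 promoters held 47 core matches, of which 40 lay wholly before the start. Counted by the centre of the match, 25 lay before the start and within 100 bases of it. A match describes letters only and does not show that a factor bound there.

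Promoter stretches are shown for 5 members that rose after both drugs and for 3 of the 4 that fell after one of them, to show that the element occurs in genes of both kinds. CMPK2, the remaining member that fell, had no core match in this window. They are printed 5′ to 3′ in the direction of the gene, with core matches in capitals. The IFIT1 stretch lies at chr10:89392492-89392544 on the plus strand, IFIT3 at chr10:89327826-89327899 (plus), ISG15 at chr1:1013369-1013414 (plus), IFI6 at chr1:27672261-27672363 (minus) and IFITM3 at chr11:320871-320927 (minus). Of the genes that fell, HERC5 is shown at chr4:88456979-88457069 (plus), ISG20 at chr15:88638932-88638971 (plus) and OAS3 at chr12:112938447-112938473 (plus). OAS3 held a further core match, beginning at -143 bases from the start, that lies outside the stretch shown.
IFIT1: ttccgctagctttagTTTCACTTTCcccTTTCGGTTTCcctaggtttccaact
IFIT3: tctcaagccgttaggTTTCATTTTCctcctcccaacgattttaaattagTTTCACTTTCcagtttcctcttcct
ISG15: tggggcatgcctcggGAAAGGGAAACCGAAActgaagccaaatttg
IFI6: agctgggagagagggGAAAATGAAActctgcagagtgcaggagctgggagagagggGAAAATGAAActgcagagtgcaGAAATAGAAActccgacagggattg
IFITM3: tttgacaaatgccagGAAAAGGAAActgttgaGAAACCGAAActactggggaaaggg
HERC5: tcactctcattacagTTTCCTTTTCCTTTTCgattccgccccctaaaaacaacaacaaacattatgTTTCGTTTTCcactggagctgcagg
ISG20: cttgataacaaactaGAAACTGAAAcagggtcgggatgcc
OAS3: cggagagccgggcggGAAAACGAAAcc
In IFIT1, IFIT3 and HERC5 the core reads on the strand opposite to the gene, and in ISG15 and HERC5 matches overlap one another. After vemurafenib the 25 tested members with a core had a median log2 fold change of 0.76, with 17 higher and 2 lower, and the 14 without one had 0.83, with 11 higher and 1 lower. After cisplatin the medians were 0.70 with a core, where 15 were higher and 1 lower, and 0.93 without one, where 10 were higher and the rest did not pass. In the contrast of vemurafenib with cisplatin the median was 0.15 with a core, where 6 were higher and 5 lower, and -0.32 without one, where 1 was higher and 4 lower. The 15 members with 2 or more cores had a median of 0.47 in that contrast, with 6 higher and 2 lower. Of all tested genes 22.0% rose and 22.9% fell after vemurafenib, and 22.7% rose and 23.5% fell after cisplatin. In the drug contrast 23.0% were higher and 20.8% lower, so there the counts of the 25 members with a core were near the background. No test was made of these descriptions.

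**Figure D4:**
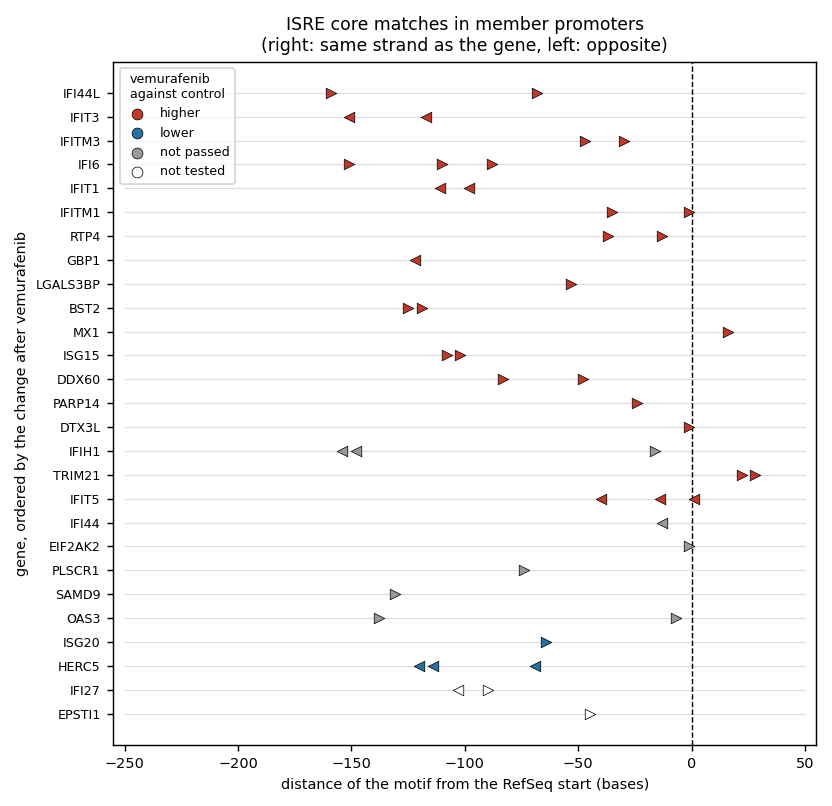
Each row is 1 of the 27 members with an ISRE core and each triangle 1 match, at its distance in bases from the RefSeq start, pointing right on the strand of the gene and left on the other; colour gives the call after vemurafenib. Of the 47 matches 40 lie wholly before the start, and the rows of HERC5 and ISG20 carry matches in the same stretch as genes that rose.

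The IFIT proteins bind viral RNA that lacks a host-type cap and keep it from being translated. IFIT2 had the largest rise of any member after vemurafenib. Its levels were 2.41, 2.46 and 2.44 CPM in the control libraries, 19, 32.6 and 27.5 after vemurafenib and 13.1, 12.1 and 14.4 after cisplatin. The 3 groups did not overlap, and vemurafenib replicate 1 was the lowest of its group. Log2 fold changes were 3.43 (SE 0.21, adjusted p = 3.74e-07) after vemurafenib and 2.44 (SE 0.22, adjusted p = 4.2e-06) after cisplatin, and vemurafenib exceeded cisplatin by 1.00 (SE 0.18, adjusted p = 0.000899). IFIT3 stood at 12.7, 10.2 and 9.82 CPM in controls, 46.6, 57.4 and 49.8 after vemurafenib and 37.2, 32.2 and 27.5 after cisplatin. It showed the same order of groups without overlap, with log2 fold changes of 2.24 (SE 0.15, adjusted p = 7.04e-07) and 1.57 (SE 0.15, adjusted p = 9.11e-06) and a drug difference of 0.67 (SE 0.14, adjusted p = 0.00286). IFIT1 went from 5.61, 6.11 and 5.65 CPM to 16.5, 24.3 and 19.6 after vemurafenib and 14.8, 10.2 and 13.2 after cisplatin. All its treated libraries lay above the controls and the vemurafenib libraries above the cisplatin ones, by log2 values of 1.80 (SE 0.18, adjusted p = 1.36e-05), 1.14 (SE 0.19, adjusted p = 0.000452) and 0.66 (SE 0.17, adjusted p = 0.00947). The drug difference of IFIT1 had an adjusted p of 0.0509 without cisplatin replicate 2.

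The fourth IFIT gene changed less than the others. IFIT5 was at 31.7, 25.4 and 26.9 CPM in controls, 29.1, 39.8 and 40 after vemurafenib and 33, 30.5 and 30.2 after cisplatin. Vemurafenib replicate 1 fell inside the control range, and the log2 fold change was 0.37 (SE 0.14, adjusted p = 0.0496). That call was lost in 14 of 18 other settings. Among them were the replicate number as a block (adjusted p = 0.0676) and a fit of only the groups compared (0.101). Tests by limma on log2(TPM + 1) and log2(TPM + 0.1) gave 0.0865 and 0.0875. The call was also lost without any 1 of 7 libraries (adjusted p 0.0673 to 0.17). These were control 2 and 3, vemurafenib 2 and 3, and cisplatin 1, 2 and 3. After cisplatin IFIT5 changed by 0.16 (SE 0.14, adjusted p = 0.392). All 4 IFIT genes lie within 1 Mb on chromosome 10, with IFIT2, the strongest, and IFIT5, the weakest, at its ends.

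Further inhibitors of translation and RNA editing did not pass any of the 3 tests. EIF2AK2 encodes the kinase PKR, which halts translation on double-stranded RNA. It stood at 97.4, 102 and 108 CPM in controls, 90.9, 133 and 129.7 after vemurafenib and 104, 103 and 112 after cisplatin, with log2 changes of 0.20 (SE 0.14, adjusted p = 0.247) and 0.06 (SE 0.14, adjusted p = 0.755). ADAR, the enzyme that edits adenosine to inosine in such RNA, stood at 301, 301 and 320.4, 241, 359.6 and 362 and 388, 364 and 384 CPM in the same order, with 0.06 (SE 0.14, adjusted p = 0.752) and 0.30 (SE 0.14, adjusted p = 0.104). Both are long transcripts, and both were lowest of all 9 libraries in vemurafenib replicate 1. Without that library their rises after vemurafenib passed the test, at adjusted p = 0.00126 for EIF2AK2 and 0.0157 for ADAR, and ADAR passed after cisplatin at 0.00158. EIF2AK2 then also passed between the drugs at adjusted p = 0.00414.

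The oligoadenylate synthetases make the 2′-5′ messenger that activates RNase L, and their genes went in different directions. OAS1 stood at 10.5, 11.3 and 11.3 CPM in controls, 22.3, 24.9 and 27.1 after vemurafenib and 30.5, 26.4 and 32.4 after cisplatin. OAS2 stood at 9.13, 7.1 and 8.73, 16.5, 25.4 and 24.7 and 33.9, 31.1 and 28 CPM. Both lay above the controls in all 6 treated libraries. OAS1 rose by 1.17 (SE 0.13, adjusted p = 2.21e-05) after vemurafenib and 1.43 (SE 0.13, adjusted p = 4.44e-06) after cisplatin on the log2 scale, and OAS2 by 1.41 (SE 0.18, adjusted p = 6.98e-05) and 1.89 (SE 0.18, adjusted p = 7.44e-06). OAS2 was lower after vemurafenib than after cisplatin by -0.48 (SE 0.17, adjusted p = 0.037), which did not pass without cisplatin replicate 1 (adjusted p = 0.126) or cisplatin replicate 2 (0.0917). The same difference for OAS1 was -0.27 (SE 0.12, adjusted p = 0.098).

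OAS3 lies between OAS1 and OAS2 on chromosome 12 and was the only tested member called lower after cisplatin. Its levels were 71.6, 80.4 and 87 CPM in controls, 55.6, 80.3 and 83.1 after vemurafenib and 46.1, 45.1 and 44.8 after cisplatin. The cisplatin libraries were closely spaced and below all others, while vemurafenib replicate 1 was low and its group overlapped the controls. The log2 changes were -0.81 (SE 0.15, adjusted p = 0.000845) after cisplatin and -0.13 (SE 0.14, adjusted p = 0.511) after vemurafenib, and vemurafenib exceeded cisplatin by 0.69 (SE 0.15, adjusted p = 0.00267). The related OASL, which lacks synthetase activity, was at 0.717 ± 0.0601 CPM (mean ± SD, n = 3) in controls, 0.668 ± 0.076 after vemurafenib and 0.972 ± 0.317 after cisplatin and passed no test.

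Cytosolic sensors start the response by detecting foreign or misplaced nucleic acid. IFI16, which binds DNA, rose after vemurafenib. Its levels were 150.3, 158 and 142 CPM in controls, 297, 306 and 284 after vemurafenib and 183, 172 and 162 after cisplatin. Every group was separate from the others, but the step after cisplatin was small. The log2 changes were 0.98 (SE 0.10, adjusted p = 9.4e-06) and 0.20 (SE 0.10, adjusted p = 0.112), with a drug difference of 0.78 (SE 0.10, adjusted p = 4.9e-05). Without vemurafenib replicate 1 its change after cisplatin passed at adjusted p = 0.0347.

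Among the RIG-I-like helicases, which sense RNA, the means of DDX58 and DHX58 were higher after cisplatin than after vemurafenib. DDX58, which encodes RIG-I, stood at 8.61, 12.7 and 9.63 CPM in controls, 10.8, 18.9 and 22 after vemurafenib and 23.1, 19.1 and 27.8 after cisplatin. Vemurafenib replicate 1 lay within the control range, whereas all cisplatin libraries were above it. The log2 changes were 0.74 (SE 0.25, adjusted p = 0.0305) and 1.18 (SE 0.25, adjusted p = 0.00242). The vemurafenib call was lost without control replicate 1 (adjusted p = 0.113), control replicate 3 (0.0997), vemurafenib replicate 2 (0.083) or vemurafenib replicate 3 (0.121). DHX58, encoding the regulatory helicase LGP2, went from 7.11, 7.43 and 6.36 CPM to 14.5, 12.6 and 10.6 after vemurafenib and 19, 15.8 and 14.1 after cisplatin. All treated libraries exceeded the controls, and the log2 changes were 0.85 (SE 0.17, adjusted p = 0.00166) and 1.23 (SE 0.17, adjusted p = 0.000125). Between the drugs DDX58 differed by -0.43 (SE 0.24, adjusted p = 0.168) and DHX58 by -0.38 (SE 0.16, adjusted p = 0.0791). DDX58 passed that contrast without vemurafenib replicate 3 (adjusted p = 0.0487), and DHX58 passed it with the replicate block (0.0342) and without vemurafenib replicate 1 (0.0202).

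IFIH1 and DDX60 gave borderline values. IFIH1, which encodes the long double-stranded RNA sensor MDA5, stood at 7.37, 7.63 and 8.02 CPM in controls, 8.13, 13.7 and 11.2 after vemurafenib and 10.7, 9.64 and 14.7 after cisplatin. Its libraries lay above the controls in both treated groups, with log2 changes of 0.52 (SE 0.21, adjusted p = 0.0649) and 0.60 (SE 0.21, adjusted p = 0.0345). The cisplatin call was lost without any 1 control library or without cisplatin replicate 1 or 3 (adjusted p 0.052 to 0.162), and the vemurafenib change passed without vemurafenib replicate 1 (0.00689). DDX60 stood at 7.89, 7.96 and 6.68, 8.52, 16.5 and 13.2 and 9.28, 8.89 and 9.46 CPM in the same order of groups. It rose by 0.76 (SE 0.21, adjusted p = 0.0122) after vemurafenib, not passing without control replicate 3 (adjusted p = 0.0553) or vemurafenib replicate 2 (0.058), and its change after cisplatin was 0.29 (SE 0.22, adjusted p = 0.289). Its drug difference passed only without vemurafenib replicate 1 (adjusted p = 0.00191) among the settings tried.

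The ISG15 system held both a rise and the deepest fall among the members. ISG15, the modifier itself, went from 5.87, 4.71 and 5.26 CPM in controls to 10.9, 8.17 and 9.48 after vemurafenib and 11.1, 9.43 and 10.9 after cisplatin. All treated libraries lay above the controls and the drugs overlapped. Log2 changes were 0.85 (SE 0.17, adjusted p = 0.00152) and 0.99 (SE 0.17, adjusted p = 0.000535). UBE2L6, which encodes the conjugating enzyme for ISG15, did not pass in any comparison, at 65.4 ± 3.02 CPM in controls, 71.8 ± 8.12 after vemurafenib and 66.9 ± 1.72 after cisplatin. USP18, the protease that removes ISG15 and also restrains the interferon receptor, was at 5.09, 6.24 and 4.75 CPM in controls, 9.88, 9.66 and 9.24 after vemurafenib and 6.23, 6.31 and 5.99 after cisplatin. Only the vemurafenib libraries were separate, with a log2 change of 0.84 (SE 0.15, adjusted p = 0.000965) against control and 0.63 (SE 0.15, adjusted p = 0.00559) against cisplatin. Of its 50-base stretches 23.4% also occur in USP41 or another gene, so reads could have been split between them.

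HERC5 encodes the main ligase that attaches ISG15 in human cells, and its neighbour HERC6 a related protein. HERC5 stood at 5.8, 5.51 and 5.52 CPM in controls, 2.08, 1.62 and 1.71 after vemurafenib and 5.4, 5.29 and 5.73 after cisplatin. The vemurafenib libraries were below all 6 others, which overlapped. HERC5 fell by 1.63 on the log2 scale after vemurafenib (SE 0.18, adjusted p = 2.74e-05) and was lower than after cisplatin by -1.60 (SE 0.18, adjusted p = 3.14e-05), while its change after cisplatin was -0.04 (SE 0.17, adjusted p = 0.88). HERC6, on the same stretch of chromosome 4, went from 6.2, 6.7 and 7 CPM to 14.5, 15.8 and 13 after vemurafenib and 13.4, 10.7 and 12.4 after cisplatin. Its treated libraries all exceeded the controls, with log2 changes of 1.12 (SE 0.15, adjusted p = 8.89e-05) and 0.87 (SE 0.15, adjusted p = 0.000569). After vemurafenib the adjacent pair therefore changed in opposite directions.

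The dynamin-like GTPases MX1 and MX2 trap viral nucleoproteins and capsids, and the guanylate-binding proteins attack the membranes around pathogens. MX1 stood at 8.35, 7.9 and 6.93 CPM in controls, 12.7, 15.2 and 17.9 after vemurafenib and 26.2, 19.3 and 21.6 after cisplatin. The groups stood in that order without overlap. Log2 changes were 0.98 (SE 0.17, adjusted p = 0.000667) and 1.53 (SE 0.17, adjusted p = 2.47e-05), and the drugs differed by -0.55 (SE 0.16, adjusted p = 0.0159), which did not pass without cisplatin replicate 1 (adjusted p = 0.0807). MX2, beside it on chromosome 21, showed the other order, with 66.8, 60.5 and 70.8 CPM in controls, 104, 98.7 and 103 after vemurafenib and 73.2, 79.5 and 80.5 after cisplatin. Again no groups overlapped. MX2 changed by 0.62 (SE 0.10, adjusted p = 0.000318) and 0.24 (SE 0.10, adjusted p = 0.0668), the second of which passed without vemurafenib replicate 1 (adjusted p = 0.0163), and vemurafenib exceeded cisplatin by 0.39 (SE 0.10, adjusted p = 0.00706).

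GBP1 and GBP2 are likewise neighbours, on chromosome 1. GBP1 went from 6.78, 8.49 and 7.45 CPM to 15.1, 23.7 and 18.5 after vemurafenib and 14.9, 14.7 and 12.6 after cisplatin. All treated libraries were above the controls and those of vemurafenib above those of cisplatin. The log2 changes were 1.33 (SE 0.18, adjusted p = 0.000104), 0.89 (SE 0.18, adjusted p = 0.00177) and, between drugs, 0.44 (SE 0.17, adjusted p = 0.0574), and the last passed with the replicate block (adjusted p = 0.04) and without vemurafenib replicate 1 (0.00533). GBP2 stood at 40.4, 49 and 32.2 CPM in controls, 42.5, 44.7 and 38.1 after vemurafenib and 80.5, 86.2 and 76.2 after cisplatin. Only the cisplatin libraries left the control range. GBP2 rose by 1.00 (SE 0.14, adjusted p = 0.000173) after cisplatin, its change after vemurafenib was 0.04 (SE 0.14, adjusted p = 0.824), and the drugs differed by -0.95 (SE 0.14, adjusted p = 0.000228).

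Of the 7 tested membrane-acting factors 6 rose after vemurafenib and 4 after cisplatin, beside 22.0% and 22.7% of all tested genes. Between the drugs 4 were higher after vemurafenib, the IFITM genes and BST2, and 1, IFI6, was lower, beside 23.0% and 20.8% of all tested genes. The IFITM proteins stiffen endosomal and plasma membranes and so hinder viral fusion. IFITM3 stood at 192, 224 and 192 CPM in controls, 1290.0, 806 and 744 after vemurafenib and 370.1, 355 and 389.9 after cisplatin. The groups were separate, and vemurafenib replicate 1 was far above its partners. Log2 changes were 2.22 (SE 0.19, adjusted p = 3.08e-06) and 0.88 (SE 0.18, adjusted p = 0.00206), with 1.35 (SE 0.18, adjusted p = 0.000106) between the drugs. IFITM2 followed the same order, at 26.7, 28.5 and 26.4, 183, 124 and 104 and 52.2, 52.1 and 53.5 CPM. Here too replicate 1 was the highest vemurafenib library, and the changes were 2.33 (SE 0.18, adjusted p = 1.55e-06), 0.95 (SE 0.17, adjusted p = 0.000975) and 1.38 (SE 0.17, adjusted p = 5.58e-05). IFITM1 stood at 4.63, 4.45 and 4.88 CPM in controls, 15.8, 14.7 and 16.7 after vemurafenib and 5.33, 3.46 and 5.66 after cisplatin. Its control and cisplatin libraries overlapped and all vemurafenib libraries were above them, by log2 values of 1.76 (SE 0.18, adjusted p = 1.44e-05) against control and 1.71 (SE 0.18, adjusted p = 1.72e-05) against cisplatin. The 3 genes lie within 1 Mb on chromosome 11 and resemble one another: in GENCODE transcripts 32.9% of the 50-base stretches of IFITM1, 35.3% of IFITM2 and 16.0% of IFITM3 also occur in another gene. How reads that fit several of them were counted is not given in the sources used here, so the split among them is uncertain. Of the exon bases of IFITM3 21.3% also lie opposite a gene on the other strand, and no label says that strand was marked.

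BST2 was highest after vemurafenib and IFI6 after cisplatin. BST2, which encodes tetherin, holds budding virions to the cell and stood at 2.48, 1.66 and 2.7 CPM in controls, 5.98, 2.93 and 4.83 after vemurafenib and 2.01, 1.29 and 1.93 after cisplatin. The vemurafenib libraries lay above all others, with a log2 change of 1.00 (SE 0.30, adjusted p = 0.0175) against control that was lost without control replicate 2 (adjusted p = 0.0766), and 1.39 (SE 0.31, adjusted p = 0.00362) against cisplatin. IFI6, a membrane protein that curbs flavivirus replication at the endoplasmic reticulum, went from 8.61, 8.69 and 9.88 CPM to 37.3, 30.4 and 46.8 after vemurafenib and 55.9, 49.5 and 51.1 after cisplatin. The 3 groups did not overlap, and changes were 2.07 (SE 0.16, adjusted p = 1.63e-06) and 2.52 (SE 0.16, adjusted p = 2.72e-07). The drugs differed by -0.45 (SE 0.15, adjusted p = 0.0261), and this call was lost without vemurafenib replicate 2 (adjusted p = 0.0722) or without cisplatin replicate 1 (0.0931), 2 (0.0509) or 3 (0.0581).

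The remaining genes of this kind were low or did not pass. RTP4, a chaperone of membrane receptors, had 0.934 ± 0.396 CPM in controls, 2.74 ± 0.437 after vemurafenib and 3.19 ± 0.403 after cisplatin, and rose after both, by 1.54 (SE 0.30, adjusted p = 0.00157) and 1.76 (SE 0.30, adjusted p = 0.000605). PLSCR1, a phospholipid scramblase, was at 19.4 ± 3.45, 21.8 ± 5.53 and 18.8 ± 1.38 CPM and passed no test. Without vemurafenib replicate 1 PLSCR1 passed against control (adjusted p = 0.0397) and against cisplatin (0.0266). IFI27 was listed at 0.0867 ± 0.0361 CPM in controls, 0.249 ± 0.103 after vemurafenib and 0.112 ± 0.0758 after cisplatin and was not tested.

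**Figure D5:**
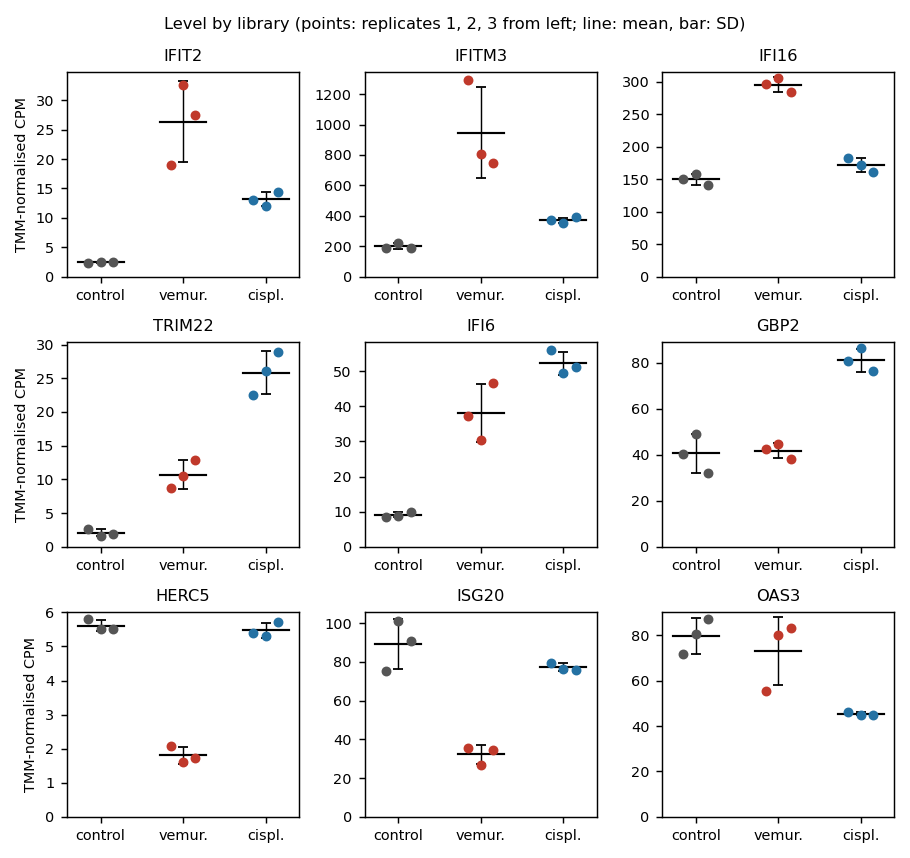
Each panel plots 1 member in TMM-normalised CPM on an axis from 0, with points for replicates 1 to 3 of control (grey), vemurafenib (red) and cisplatin (blue), a line for the mean and a bar for the SD. The first row is highest after vemurafenib and the second after cisplatin. In the last row HERC5 and ISG20 are low only after vemurafenib, and OAS3 is lowest after cisplatin.

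Enzymes of nucleotide and RNA metabolism included 2 of the 3 members that fell after vemurafenib. ISG20, an exonuclease that degrades single-stranded RNA, stood at 75.3, 101 and 91 CPM in controls, 35.5, 26.8 and 34.4 after vemurafenib and 79.5, 76.5 and 76 after cisplatin. The vemurafenib libraries were below all others, while cisplatin overlapped the controls. ISG20 fell by 1.47 after vemurafenib (SE 0.14, adjusted p = 6.65e-06), was lower than after cisplatin by -1.26 (SE 0.14, adjusted p = 1.99e-05), and changed by -0.20 (SE 0.13, adjusted p = 0.232) after cisplatin. RSAD2 encodes viperin, which makes a chain-terminating nucleotide, and CMPK2, its neighbour on chromosome 2, supplies the precursor. RSAD2 was scarce, at 0.196, 0.199 and 0.449 CPM in controls, 0.455, 0.873 and 0.734 after vemurafenib and 0.969, 1.43 and 1.47 after cisplatin. The groups did not overlap, and the log2 changes were 1.26 (SE 0.46, adjusted p = 0.0423) and 2.16 (SE 0.42, adjusted p = 0.00147). CMPK2 stood at 5.41, 3.92 and 5.07, 2.86, 3.18 and 3.18 and 4.71, 3.94 and 4.26 CPM in the same order, so that its vemurafenib libraries were the lowest. It changed by -0.64 (SE 0.19, adjusted p = 0.0179) after vemurafenib and -0.16 (SE 0.19, adjusted p = 0.519) after cisplatin. The vemurafenib call of RSAD2 was lost without control 1 or 2, vemurafenib 2 or 3, or cisplatin 2 or 3 (adjusted p 0.0554 to 0.135), and that of CMPK2 without control 1 (0.0714) or control 3 (0.053). Between the drugs RSAD2 differed by -0.89 (SE 0.36, adjusted p = 0.0642), which passed with the replicate block (0.0434), and CMPK2 by -0.48 (SE 0.19, adjusted p = 0.0641).

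SAMD9 and SAMD9L, adjacent genes on chromosome 7 that restrict poxviruses and growth, were highest after cisplatin. SAMD9 stood at 51, 43.5 and 49.2 CPM in controls, 29.2, 68.2 and 63.1 after vemurafenib and 87.3, 82.9 and 82.6 after cisplatin. Vemurafenib replicate 1 was below every control library, and replicates 2 and 3 were above. The log2 changes were 0.16 (SE 0.24, adjusted p = 0.613) after vemurafenib, which passed without replicate 1 (adjusted p = 0.000703), and 0.82 (SE 0.24, adjusted p = 0.0148) after cisplatin, which did not pass without control replicate 2 (0.0617). SAMD9L stood at 15.5, 16.9 and 17.3, 15.9, 28.2 and 26.9 and 33.3, 31.1 and 34.6 CPM. Its cisplatin libraries were above all others, and vemurafenib replicate 1 lay in the control range. Its changes were 0.51 (SE 0.18, adjusted p = 0.0403) and 0.99 (SE 0.18, adjusted p = 0.00103), and the vemurafenib call was lost without any 1 library other than vemurafenib replicate 1 (adjusted p 0.0554 to 0.157). Between the drugs SAMD9 differed by -0.65 (SE 0.24, adjusted p = 0.042) and SAMD9L by -0.48 (SE 0.18, adjusted p = 0.0495). Neither difference passed without any 1 control or any 1 cisplatin library, with adjusted p from 0.0529 to 0.101 for SAMD9 and from 0.0576 to 0.13 for SAMD9L.

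TRIM22 had the largest rise of any member after cisplatin. This ubiquitin ligase restrains retroviral transcription and stood at 2.67, 1.66 and 1.93 CPM in controls, 8.65, 10.5 and 12.9 after vemurafenib and 22.6, 26.1 and 28.9 after cisplatin. No groups overlapped. TRIM22 changed by 2.35 (SE 0.22, adjusted p = 6.46e-06) and 3.62 (SE 0.22, adjusted p = 1.69e-07), and was lower after vemurafenib than after cisplatin by -1.27 (SE 0.18, adjusted p = 0.000165). SP100, a scaffold of the nuclear bodies that silence viral genomes, went from 50.6, 48.4 and 49.9 CPM to 61.5, 67.8 and 65.7 and 85, 80.9 and 85.4. It kept the same order without overlap at a smaller size, with 0.39 (SE 0.09, adjusted p = 0.00457), 0.75 (SE 0.09, adjusted p = 4.8e-05) and -0.37 (SE 0.09, adjusted p = 0.00651). For TRIM22 15.5% of the 50-base stretches also occur in another gene, mostly the overlapping OR56B1. SP110, a relative of SP100 with 20.9% of its exon bases opposite a gene on the other strand, stood at 15.9 ± 2.19 CPM in controls, 24.1 ± 0.813 after vemurafenib and 23.2 ± 1.19 after cisplatin, and rose by 0.60 (SE 0.12, adjusted p = 0.00205) and 0.55 (SE 0.12, adjusted p = 0.0036). TRIM21, a cytosolic antibody receptor, was at 7.07 ± 0.393, 9.95 ± 2.03 and 11.5 ± 0.282 CPM and rose by 0.49 (SE 0.16, adjusted p = 0.029) and 0.70 (SE 0.16, adjusted p = 0.00438). Its vemurafenib call was lost without control 1 (adjusted p = 0.0922), control 2 (0.0565), control 3 (0.0781) or vemurafenib 1 (0.0665).

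PARP9 and DTX3L form a complex that ubiquitinates histones and viral proteases, and PARP14 is an ADP-ribosyltransferase; the 3 genes lie side by side on chromosome 3. PARP9 stood at 30.3, 30.1 and 24.8 CPM in controls, 49, 64 and 63.1 after vemurafenib and 87.7, 80.5 and 82.1 after cisplatin. Its groups were fully separate, with log2 changes of 1.05 (SE 0.13, adjusted p = 5.71e-05), 1.56 (SE 0.13, adjusted p = 2.72e-06) and, between drugs, -0.51 (SE 0.13, adjusted p = 0.00675). DTX3L went from 45 ± 5.83 CPM to 67.7 ± 12.7 after vemurafenib and 73.1 ± 2.18 after cisplatin, by 0.59 (SE 0.14, adjusted p = 0.0059) and 0.70 (SE 0.14, adjusted p = 0.00201). PARP14 went from 49.7 ± 2.93 to 81.8 ± 16.1 and 91.5 ± 3.7 CPM, by 0.72 (SE 0.14, adjusted p = 0.00132) and 0.88 (SE 0.14, adjusted p = 0.000322). For these 2 genes the vemurafenib and cisplatin libraries overlapped.

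The last group holds effectors of less settled function. IFI44L, one of the most responsive interferon markers, stood at 0.457, 0.73 and 0.385 CPM in controls, 2.73, 8.23 and 5.69 after vemurafenib and 2.84, 3.12 and 3.66 after cisplatin. All treated libraries lay above the controls, and vemurafenib replicate 1 was the lowest of the treated ones. The log2 changes were 3.39 (SE 0.43, adjusted p = 7.11e-05) and 2.60 (SE 0.45, adjusted p = 0.000656), with a drug difference of 0.79 (SE 0.34, adjusted p = 0.0795) that passed without vemurafenib replicate 1 (adjusted p = 0.00209). Its neighbour IFI44 on chromosome 1 stood at 16.9, 20 and 18.7, 18.4, 24.3 and 24.2 and 20.5, 14.2 and 17.4 CPM. IFI44 groups overlapped, and its changes were 0.27 (SE 0.16, adjusted p = 0.2) and -0.09 (SE 0.16, adjusted p = 0.665). Without vemurafenib replicate 1 IFI44 passed against control (adjusted p = 0.0325) and against cisplatin (0.0126), and without cisplatin replicate 1 against cisplatin (0.0479).

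XAF1, which promotes apoptosis by opposing the caspase inhibitor XIAP, stood at 0.913, 1.13 and 0.513 CPM in controls, 2.67, 3.87 and 5.02 after vemurafenib and 4.08, 2.85 and 2.73 after cisplatin. Treated libraries were all above the controls, and log2 changes were 2.17 (SE 0.34, adjusted p = 0.00035) and 1.91 (SE 0.35, adjusted p = 0.000945). Of its exon bases 38.3% overlap a gene on the other strand, and reads of the pair cannot be told apart because no label says that strand was marked. IFI35 stood at 23.8, 23.8 and 24.1 CPM in controls, 57.2, 39 and 39.2 after vemurafenib and 59.5, 56.7 and 60.2 after cisplatin. It rose by 0.92 (SE 0.15, adjusted p = 0.000357) and 1.30 (SE 0.15, adjusted p = 2.75e-05). The drugs overlapped in 1 vemurafenib library, and their difference of -0.38 (SE 0.14, adjusted p = 0.0461) was lost without any 1 library other than vemurafenib replicate 1 (adjusted p 0.0567 to 0.126). EPSTI1 was at 0.37 ± 0.0815 CPM in controls, 0.726 ± 0.382 after vemurafenib and 0.451 ± 0.0955 after cisplatin, and was not tested.

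LGALS3BP, a secreted glycoprotein that binds galectins, was abundant in every group. It stood at 677, 698 and 656 CPM in controls, 1801, 1298 and 1302 after vemurafenib and 1501, 1599 and 1655 after cisplatin. Every treated library was above every control, by log2 values of 1.12 (SE 0.14, adjusted p = 4.84e-05) and 1.23 (SE 0.14, adjusted p = 2.44e-05). The drug difference was -0.11 (SE 0.13, adjusted p = 0.528) and passed without vemurafenib replicate 1 (adjusted p = 0.0104).

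On the TPM scale, which allows levels of different genes to be compared, 2 genes made up most of the programme. The summed TPM of the 50 members was 2284 ± 103 (SD, n = 3) in controls, 6654 ± 546 after vemurafenib and 4450.0 ± 249 after cisplatin. The groups did not overlap. IFITM3 alone gave 30.8% ± 1.31 of the sum in controls, 51.6% ± 4.58 after vemurafenib and 31.1% ± 0.706 after cisplatin, and LGALS3BP gave 26.2% ± 0.706, 20.6% ± 0.593 and 33.4% ± 1.28. Without these genes the sums were 980.2 ± 43.0, 1832 ± 147 and 1579 ± 51.7 TPM. The 24 tested members with the lower control level (0.167 to 12.2 TPM) had median log2 fold changes of 0.99 after vemurafenib and 1.06 after cisplatin, and the other 24 (12.2 to 705 TPM) had 0.60 and 0.63. The same control libraries set this split and enter both changes. A control value that is low by noise therefore moves a gene towards the first set and towards larger rises after both drugs. In control cells IFITM3 stood at 705 ± 58.9 TPM, ISG20 at 140.0 ± 18.6, UBE2L6 at 108 ± 7 and RSAD2 at 0.167 ± 0.0896, so the genes of this list spanned orders of magnitude before treatment.

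Neighbours did not always share their change. Of the 50 members 29 fall into 12 groups of genes within 1 Mb of each other. After vemurafenib HERC6 rose beside HERC5, which fell, and RSAD2 rose beside CMPK2, which fell. After cisplatin OAS1 and OAS2 rose on either side of OAS3, which fell. None of the other groups, the IFITM and PARP9 to PARP14 groups among them, held a member that fell against control after either drug.

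The upstream genes were described from lists of the pathway. Among interferon ligands only IFNE, an epithelial type I interferon, had enough counts to be tested. IFNE stood at 5.02, 6.64 and 6.55 CPM in controls, 0.195, 0.686 and 0.612 after vemurafenib and 4.01, 3.73 and 4.66 after cisplatin. The vemurafenib libraries were far below the others, with a fall of 3.58 on the log2 scale (SE 0.32, adjusted p = 4.55e-06). After cisplatin the change was -0.55 (SE 0.25, adjusted p = 0.0858), which passed without vemurafenib replicate 1 (adjusted p = 0.0203). The interferon alpha gene IFNA1 had 22 counts over the control libraries, 3 over those of vemurafenib and 11 over those of cisplatin. A further 5 interferon genes in the table had between 0 and 7 counts per group. Other listed ligands, among them IFNB1, IFNG, IFNL1, IFNL2 and IFNL3, had no entry under these symbols in the deposited table. Their levels could therefore not be described.

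Of 9 receptor and kinase genes tested 1 rose and 2 fell after vemurafenib, and 3 rose and 2 fell after cisplatin. Over all tested genes 22.0% rose and 22.9% fell after vemurafenib and 22.7% rose and 23.5% fell after cisplatin, so that the falls of this list were at the background share. IFNLR1, the specific chain of the type III interferon receptor, went from 13.1, 13 and 9.88 CPM in controls to 1.56, 3.06 and 1.47 after vemurafenib and 9.41, 6.92 and 5.93 after cisplatin. Vemurafenib libraries were lowest throughout. IFNLR1 changed by -2.56 (SE 0.28, adjusted p = 2.39e-05) and -0.69 (SE 0.25, adjusted p = 0.0393), and the cisplatin call was lost without control 1 or 2 or cisplatin 2 or 3 (adjusted p 0.116 to 0.142). IFNGR2, a chain of the interferon gamma receptor, went from 132, 144 and 122 CPM to 47.7, 40.2 and 48.5 and 81.5, 81.5 and 72.3, by -1.54 (SE 0.11, adjusted p = 1.23e-06) and -0.75 (SE 0.11, adjusted p = 0.000211). IL10RB, the chain shared by type III interferon and interleukin-10 receptors, changed by 0.41 (SE 0.12, adjusted p = 0.0183) and 0.67 (SE 0.12, adjusted p = 0.00106). The vemurafenib call of IL10RB was lost without control 1 (adjusted p = 0.0608), control 3 (0.0812) or vemurafenib 2 (0.0787).

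Of the 8 transcription factors of the pathway that were tested 5 were lower after vemurafenib than after cisplatin and 3 did not pass, beside 20.8% lower among all tested genes. Against control 3 rose and 1 fell after vemurafenib, and 7 rose after cisplatin, where IRF1 did not pass, beside 22.0% and 22.9%, and 22.7% higher, of all tested genes. STAT2 stood at 53.1, 50.9 and 49.9 CPM in controls, 78.2, 101 and 92.4 after vemurafenib and 124, 140.1 and 144 after cisplatin. IRF9 stood at 12.2, 15.2 and 12.1, 24, 28.2 and 22 and 37.5, 32.6 and 29 CPM. In both genes the groups were in that order without overlap. Log2 changes after vemurafenib were 0.82 (SE 0.11, adjusted p = 0.000139) for STAT2 and 0.91 (SE 0.15, adjusted p = 0.000468) for IRF9. After cisplatin they were 1.41 (SE 0.11, adjusted p = 2.21e-06) and 1.33 (SE 0.15, adjusted p = 2.92e-05). The drug differences were -0.59 (SE 0.11, adjusted p = 0.00131) and -0.42 (SE 0.14, adjusted p = 0.0356), the second of which was lost without vemurafenib 3 (adjusted p = 0.0891) or cisplatin 1 (0.15) or 2 (0.0839). IRF7, the amplifier of interferon alpha genes, rose by 0.73 (SE 0.16, adjusted p = 0.00324) after cisplatin and changed by 0.08 (SE 0.17, adjusted p = 0.706) after vemurafenib. IRF5 fell by 1.03 after vemurafenib (adjusted p = 0.00877) and rose by 0.85 (SE 0.24, adjusted p = 0.0128) after cisplatin, the second not passing without control 3 (0.0528) or cisplatin 2 (0.0542). IRF1 changed by -0.24 (SE 0.13, adjusted p = 0.163) and -0.16 (SE 0.13, adjusted p = 0.333), the first of which passed without vemurafenib replicate 1 (adjusted p = 0.0142).

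Among 10 sensing adaptors and kinases 4 rose and 2 fell after vemurafenib, and 5 rose and 1 fell after cisplatin, beside 22.0% and 22.9%, and 22.7% and 23.5%, of all tested genes. SAMHD1, which depletes the nucleotides that viruses need, went from 21.5, 22.4 and 27.8 CPM to 56.7, 76.6 and 63 after vemurafenib and 33, 28.8 and 31.6 after cisplatin. Both treated groups lay above the controls, vemurafenib by more, with 1.45 (SE 0.14, adjusted p = 9.4e-06) against 0.38 (SE 0.14, adjusted p = 0.0467), and the cisplatin call was lost without control 1 or 2 or any 1 cisplatin library (adjusted p 0.062 to 0.161). AIM2, a sensor of cytosolic DNA, was at 12.2, 15.5 and 15, 23.3, 22.3 and 22 and 37.7, 33.7 and 33.2 CPM. AIM2 rose by 0.67 (SE 0.12, adjusted p = 0.00102) and 1.29 (SE 0.12, adjusted p = 7.36e-06), the larger after cisplatin (drug difference -0.63 (SE 0.12, adjusted p = 0.00126)). The adaptor MYD88 rose by 0.88 (SE 0.10, adjusted p = 3.42e-05) after cisplatin and 0.30 (SE 0.10, adjusted p = 0.0309) after vemurafenib, the second lost without any 1 control library, vemurafenib 3 or cisplatin 2 (adjusted p 0.0521 to 0.113).

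Of 8 negative regulators 2 fell and 6 did not pass after vemurafenib, and 2 rose and 2 fell after cisplatin. Of all tested genes 22.9% fell after vemurafenib and 22.7% rose and 23.5% fell after cisplatin, so the counts that fell after either drug and rose after cisplatin were near the background. SOCS3, a feedback inhibitor of JAK kinases, stood at 21.4, 20 and 17.8 CPM in controls, 26.4, 24.1 and 21.6 after vemurafenib and 10.9, 8.82 and 6.39 after cisplatin. The cisplatin libraries were below all others. SOCS3 changed by -1.18 (SE 0.18, adjusted p = 0.000278) after cisplatin and 0.28 (SE 0.17, adjusted p = 0.2) after vemurafenib, and the drugs differed by 1.46 (SE 0.18, adjusted p = 5.22e-05). PIAS4, an inhibitor of STAT activity, fell by 0.59 after vemurafenib (adjusted p = 0.00221) and by 0.50 after cisplatin (adjusted p = 0.0061).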

How the data were processed

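RNA-seq of 9 A375 libraries, 3 per group by the treatment labels, was analysed. The aligner was HISAT2 2.0.4 and the genome build hg38, per the submitters' processing notes. Which tool counted them, and on which annotation, is not given in the sources used here. As deposited by the authors, 1 table held estimated counts, TPM and FPKM values for each gene and library, so named per the file headers. Between 13.6% and 14.1% of the count values of a library were not whole (tolerance 1e-06), and counts were rounded before testing. TPM served for levels compared between genes and for an alternative test, and counts with FPKM gave transcript lengths.

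Genes were filtered with edgeR's filterByExpr and scaled by TMM. All libraries entered 1 model of 3 group means in edgeR 4.0.16 under R 4.3.3, with 6 residual degrees of freedom, and contrasts were tested by the quasi-likelihood F test, two-sided. P-values were adjusted by Benjamini-Hochberg over all 13989 tested genes, with a threshold of 0.05. Standard errors were derived from the log2 fold change and the F statistic. The coefficient of variation between libraries of a group beyond counting error, as edgeR estimates it, was 0.139. Code was tested on simulated data. The members, the lists and the tests were chosen with earlier results of these data known, so no test over the list was made. Members named library by library were, in each role, up to 4 called genes with the largest change in either drug comparison. Others chosen for a comparison with a neighbour or for a level in vemurafenib replicate 1 were named after their values were seen. Of each pathway list up to 4 called genes per comparison and a fixed panel of transcription factors could be named.

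Replicate numbers recur in the labels of the groups. Deviations from group means of same-numbered vemurafenib and control libraries correlated at 0.176, 0.137 and 0.185 across genes, so these numbers may mark pairs of samples, although no label says so. For cisplatin and control the values were 0.21, 0.0813 and 0.125, and for the drugs 0.166, 0.013 and 0.102. Differently numbered libraries correlated at -0.167 to -0.0209 for vemurafenib and control and at -0.177 to 0.0518 for cisplatin and control. For the drugs they correlated at -0.167 to 0.142, the highest being vemurafenib 2 with cisplatin 3. No pair of libraries agreed within sampling noise.

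Alternatives were DESeq2 size factors, total counts, the Wald test of DESeq2 1.42.0, other filters, limma 3.58.1 on log2(TPM + 1) and log2(TPM + 0.1), fits of only the groups compared, a replicate block and each library left out. Promoter sequences came from RefSeq (GRCh38.p14).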

Additional observations from a re-analysis of the deposited data

How the results depend on the processing

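No member reversed its direction with a call in any setting tried. Of the 48 tested members 33 kept their side of the threshold in all settings for vemurafenib against control, 43 for cisplatin against control and 29 for the drugs against each other. With the replicate block 34 members were higher after vemurafenib than in controls and 3 lower, after cisplatin 31 were higher and 1 lower, and in the contrast of the drugs 12 were higher and 14 lower, with IFIT5 losing and DHX58, GBP1 and RSAD2 gaining a call. The block moved no other call of a member. Some calls were lost under other methods as well as without single libraries. Against control the vemurafenib calls of DDX58, SAMD9L, CMPK2 and TRIM21 were lost in 7, 11, 4 and 5 of 18 settings. That of RSAD2 was lost in 8 of 14. The drug differences of OAS2 and MX1 were lost in 6 and 3 of 18.

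The median of the members was 0.94 after vemurafenib with total counts only and 0.93 on log2(TPM + 0.1), and after cisplatin 0.93 and 0.95. With total counts the median of all tested genes after vemurafenib moved to 0.11, and 60% of called genes were higher, beside 49.1% with TMM and 59.5% on log2(TPM + 1); 36 members were then higher and 3 lower. When only the 2 drug groups were fitted, 7 members were lower after vemurafenib than after cisplatin, beside 18.9% of all genes then tested. For these shifts the cause was not tested.

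Leaving out each library in turn gave 30 to 40 members higher and 2 to 3 lower after vemurafenib (median 0.76 to 0.86), 29 to 34 higher and 1 lower after cisplatin (median 0.82 to 0.89), and between the drugs 10 to 18 higher, 6 to 15 lower and a median of -0.15 to 0.0005865, the last without vemurafenib replicate 1. Over all tested genes, vemurafenib had 2378 to 3716 higher and 2661 to 3956 lower, cisplatin had 2556 to 4220 higher and 2665 to 4422 lower, and the drug contrast had 2433 to 3755 higher and 2334 to 3402 lower. The ISRE core was in 56.1% of member promoters when only bases before the start were searched, beside 3.07% of all, and the form shorter by 1 base at its end in 68.3%, beside 8.29%. With 3 libraries a group, scarce members such as OASL, RSAD2 and BST2 had standard errors of 0.30 to 0.46, so differences of that size were not detectable.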

Other observations

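A second list of interferon-stimulated genes outside the members had 52 tested genes, of which 22 rose and 9 fell after vemurafenib, and 22 rose and 9 fell after cisplatin, beside 22.0% and 22.9%, and 22.7% and 23.5%, of all tested genes. Their median log2 fold changes were 0.37 and 0.29. The chemokine genes, whose products draw T cells through CXCR3, split: CXCL10 stood at 0.587, 1.13 and 1.41 CPM in controls, 4.49, 5.8 and 4.83 after vemurafenib and 0.623, 0.475 and 0.999 after cisplatin. CXCL11 stood at 1.96, 2.19 and 1.6, 0.325, 0.686 and 0.49 and 0.9, 0.543 and 0.4 CPM. Only the vemurafenib libraries of CXCL10 were above the controls, whereas every treated library of CXCL11 was below them. CXCL10 changed by 2.26 (SE 0.31, adjusted p = 0.000133) after vemurafenib and -0.57 (SE 0.39, adjusted p = 0.259) after cisplatin, and CXCL11 by -1.92 (SE 0.36, adjusted p = 0.00112) and -1.63 (SE 0.35, adjusted p = 0.00268).

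Of the APOBEC3 family, whose products deaminate cytidine in viral DNA, the second list held APOBEC3B, APOBEC3F and APOBEC3G, and all 3 were called lower after each drug. APOBEC3F changed by -1.68 (adjusted p = 1.67e-06) and -0.61 (adjusted p = 0.00186). APOBEC3B had the largest change of this second list, from 47.7, 41.8 and 44.7 CPM in controls to 25.6, 17.9 and 19.5 after vemurafenib and 1.66, 1.49 and 1.2 after cisplatin. The cisplatin libraries were far below all others. APOBEC3B changed by -1.09 (SE 0.15, adjusted p = 0.000101) and -4.94 (SE 0.19, adjusted p = 5.91e-09). APOBEC3G went from 86.7, 81.9 and 75.8 CPM to 15.5, 13.8 and 12 and 28.8, 25.2 and 27.6, by -2.56 (SE 0.12, adjusted p = 9.28e-08) and -1.58 (SE 0.12, adjusted p = 1.06e-06). SLFN11, which blocks replication in cells with damaged DNA, stood at 14.1, 18.7 and 19.8 CPM in controls, 16.1, 20.4 and 21.4 after vemurafenib and 3.25, 3.19 and 3.66 after cisplatin. It changed by -2.38 (SE 0.18, adjusted p = 1.45e-06) after cisplatin and 0.14 (SE 0.16, adjusted p = 0.511) after vemurafenib, so that only the cisplatin libraries left the control range downwards. LAMP3, a lysosomal membrane protein, was scarce at 1.42 ± 0.496 CPM in controls and changed by -2.85 (SE 0.45, adjusted p = 0.000352) and -2.47 (SE 0.44, adjusted p = 0.000753).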
